A study of Sus scrofa with 6 samples.

Results

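miR-423 is a microRNA (miRNA, a short RNA that guides Argonaute proteins to messenger RNAs and lowers their output) whose precursor hairpin was read from both of its arms in pig oocytes. The arms are listed as ssc-miR-423-5p and ssc-miR-423-3p, 2 of the 326 mature pig miRNAs in the deposited tables, and both were found by name. They were chosen by the near-equal read numbers of the arms in earlier results of these data, so the balance of the arms is given as a description, with no test. The study sequenced small RNA from denuded oocytes, that is, oocytes freed of the cumulus cells around them, of prepubertal gilts whose ovaries came from an abattoir. Oocytes of large follicles (LO, 3 to 6 mm) were drawn with a 20-gauge needle on a 10 mL syringe, and oocytes of small follicles (SO, under 2 mm) with a 23-gauge needle on a 5 mL syringe, so that follicle size, needle and syringe cannot be told apart. Each group had 3 libraries, called biological replicates by the series design, and no treatment or genetic change was labelled in either group. How many oocytes or animals were pooled per library is not stated in the labels. The p-values rest on the spread between these libraries only, and the fits draw that spread partly or wholly from many miRNAs or precursors together.

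As background, a miRNA hairpin is cut by Drosha and Dicer into a duplex of its 5p and 3p arms, and Argonaute usually keeps one strand while the other is degraded. The stability of the duplex ends and the first base of each strand bear on which arm is kept, and U or A at the first position is favoured. A mature miRNA finds its targets mainly through its seed, bases 2 to 8, so the arms of one hairpin have different targets. miR-423 is expressed in many tissues. Its arms are often used as reference miRNAs in PCR assays, and miR-423-5p is known as a circulating miRNA raised in heart failure. In the RefSeq gene table of assembly Sscrofa11.1, which is not the build named for these files, the MIR423 entry lies within the span of the protein-coding gene NSRP1, which encodes a regulator of splicing found in nuclear speckles.

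The mature sequences below are those of the deposited tables, 5′ to 3′ and written with T for U, with the seed in capitals. They are shown because the 2 arms carry unrelated seeds and so stand for different sets of possible targets.
miR-423-5p: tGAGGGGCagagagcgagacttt
miR-423-3p: aGCTCGGTctgaggcccctcagt
Each arm is 23 bases long. The 5p arm begins with T, as do 148 of the 326 listed miRNAs (45.4%), and the 3p arm with A, as do 86 (26.4%). The first 4 bases of each arm hold 2 G or C. Bases 1 to 8 of the 5p arm, which include its whole seed, are complementary without a mismatch to bases 14 to 21 of the 3p arm, and 2 bases of the 3p arm lie beyond that stretch. GC content is 56.5% in the 5p arm and 65.2% in the 3p arm, beside a median of 47.6% over the 326 listed sequences, and 78 and 23 of them have a higher GC content. No other listed miRNA has the seed of either arm. The nearest listed sequence differs from the 5p arm at 9 of the first 20 bases and from the 3p arm at 10, so neither arm has a near-copy among the listed names.

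Of the 77 precursors listed with both arms, 5 averaged 10 or more reads per library in each arm. The other 4 are printed for comparison, since each gave most of its reads from the 5p arm. miR-30a and miR-30e share a seed in each arm, and the other arms shown have seeds of their own among them.
miR-30a-5p: tGTAAACAtcctcgactggaag
miR-30a-3p: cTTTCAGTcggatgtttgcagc
miR-30e-5p: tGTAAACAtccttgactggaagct
miR-30e-3p: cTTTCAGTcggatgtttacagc
miR-202-5p: tTCCTATGcatatacttcttt
miR-202-3p: aGAGGTGTaggcatgggaa
miR-664-5p: cAGGCTAGgagaagtgattggat
miR-664-3p: tATTCATTtatctcccagcctaca
In miR-202, as in miR-423, the 5p arm begins with T and the 3p arm with A, each with 2 G or C among the first 4 bases. The first bases are T and C in the 5p and 3p arms of miR-30a and miR-30e, and C and T in those of miR-664.

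Listed miRNA reads ran from 7755 to 42541 in the LO libraries and from 44964 to 55230 in the SO libraries, so LO was the shallower group. The deposited values were read as RPM, that is, reads scaled by the authors to a total of 1000000 per library. What that total counts is not known, and the listed miRNAs made up 3.03%, 1.68% and 2.99% of it in LO replicates 1 to 3 and 2.33% to 2.88% in SO, so a RPM value moves with the listed share as well as with the miRNA. One read was worth 2.17 RPM in LO replicate 2, the shallowest library, and 0.457 RPM in SO replicate 3.

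Both arms were read in all 6 libraries, at 379 reads together. Listed from replicate 1 to 3, LO held 36, 4 and 26 reads of miR-423-5p, and SO held 21, 45 and 27. After the authors' scaling the LO libraries stood at 62.5, 8.67 and 18.3 RPM, and the SO libraries at 11.0, 23.5 and 12.3 RPM. LO replicate 1 was the highest of the 6 and LO replicate 2 the lowest, so the LO range enclosed the SO range. Of miR-423-3p, LO held 55, 4 and 48 reads and SO held 33, 36 and 44. The LO libraries stood at 95.5, 8.67 and 33.7 RPM, and the SO libraries at 17.2, 18.8 and 20.1 RPM. Again LO held both the highest and the lowest library, while the 3 SO libraries lay within 1.17-fold of each other.

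The LO libraries spread 7.21-fold in the 5p arm and 11.0-fold in the 3p arm. The 4 reads per arm in LO replicate 2 have a 95% exact Poisson interval of 1.09 to 10.2 reads, or 2.36 to 22.2 RPM. That interval covers counting error only and includes every SO value of the 3p arm and 2 of the 3 SO values of the 5p arm. In LO replicate 1 the intervals were 43.8 to 86.5 RPM (5p) and 72.0 to 124 RPM (3p), above the value of every other library. Replicates of both groups differed by more than sampling noise over the whole table, so these intervals understate the error between libraries.

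**Figure D1:**
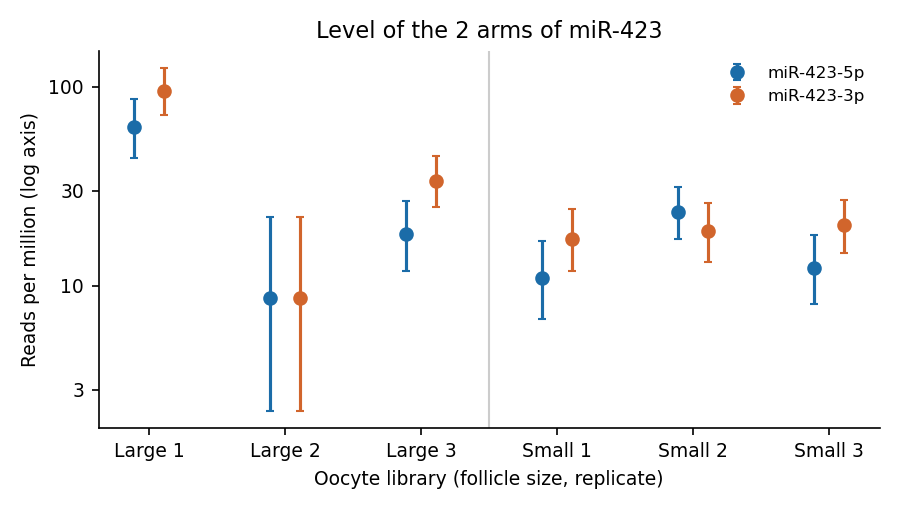
RPM of miR-423-5p and miR-423-3p (log axis) in each of the 3 large-follicle and 3 small-follicle oocyte libraries; bars are 95% exact Poisson intervals of the reads. Large replicate 1 is the highest in both arms (62.5 and 95.5 RPM) and large replicate 2 the lowest (8.67 RPM in each).

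Among the 326 listed miRNAs, miR-423-3p was 55th by mean level over the 6 libraries (32.3 ± 32.0 RPM, SD, n = 6) and miR-423-5p 66th (22.7 ± 20.2 RPM). The places just above the 3p arm were held by miR-143-3p (32.9 ± 19.0 RPM) and miR-186 (32.5 ± 15.1 RPM), and those just below it by miR-489 (32.1 ± 10.0 RPM) and miR-99b (31.6 ± 18.7 RPM). Around the 5p arm stood miR-374a-5p (24.8 ± 8.41 RPM) and miR-107 (24.6 ± 9.92 RPM) above, and miR-342 (21.6 ± 5.17 RPM) and miR-19b (21.2 ± 8.71 RPM) below. None of these neighbours differed from the arm beside it by more than its spread, and all their ranges overlapped with that of the arm. Within single libraries the 3p arm was placed from 41st in LO replicate 1 to 74th in SO replicate 1, and the 5p arm from 55th to 91st in the same libraries. As a share of the listed miRNA reads, both arms together took 0.521%, 0.103% and 0.174% of LO replicates 1 to 3, while SO replicates had 0.0978%, 0.180% and 0.139%. By that joint share LO replicate 2, with 8 reads of both arms, no longer stood below the rest, since SO replicate 1 was lower. The 3p arm alone was still lowest in LO replicate 2, at 0.0516% beside 0.0598% in SO replicate 1.

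Over all libraries the 5p arm gave 159 reads and the 3p arm 220, a 5p share of 42.0% (95% exact Clopper-Pearson interval 36.9 to 47.1, counting error only). The mean of the 6 library shares was 42.9% ± 8.02 (SD). By library the 5p share was 39.6% (29.5 to 50.4), 50.0% (15.7 to 84.3) and 35.1% (24.4 to 47.1) across LO replicates 1 to 3. For SO it was 38.9% (25.9 to 53.1), 55.6% (44.1 to 66.6) and 38.0% (26.8 to 50.3). The 3p arm had more reads in 4 libraries, the arms were equal in LO replicate 2, and the 5p arm had more in SO replicate 2. The log2 ratio of 5p to 3p reads, with 0.5 read added to each, ran from -0.87 to 0.32.

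Of the 77 precursors listed with both arms, 12 had at least 379 reads over both arms, as many as miR-423. The less read arm of the other 11 held a median of 2.38% of the reads. Well-read miRNAs listed without a partner arm, such as miR-16 and miR-103, could not be compared. Next nearest to equal among the 12 were miR-664, with 12.2% in its less read arm, and miR-361, with 11.7%. miR-361 had too few 3p reads to be among the 5 with a mean of 10 reads in each arm. The more read arm was 5p in 8 of the 12 and 3p in 4: miR-423, miR-148a, miR-27b and miR-676. In the 5 with enough reads, the mean library share of 5p was 88.6% ± 5.06 for miR-664, 93.1% ± 5.66 for miR-202, a gonadal miRNA, 94.9% ± 2.88 for miR-30e and 96.5% ± 1.23 for miR-30a (SD, n = 6 each). In each library the 5p share of miR-423 was below that of these 4; the lowest among them was 79.2%, for miR-664 in SO replicate 1. Precursors with fewer reads reached more even splits than these 4. Of the 38 with 20 to 378 reads, the less read arm held 33.3% in miR-365 (9 and 18 reads of 5p and 3p, 95% exact interval 16.5 to 54.0), 24.2% in miR-296, 23.7% in miR-126, 22.1% in miR-142 and 20.6% in miR-374a (193 and 50 reads). A mean log2 ratio nearer to 0 than that of miR-423 was found in 8 precursors, with at most 6 reads each. These values chose the pair and are given without a test.

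**Figure D2:**
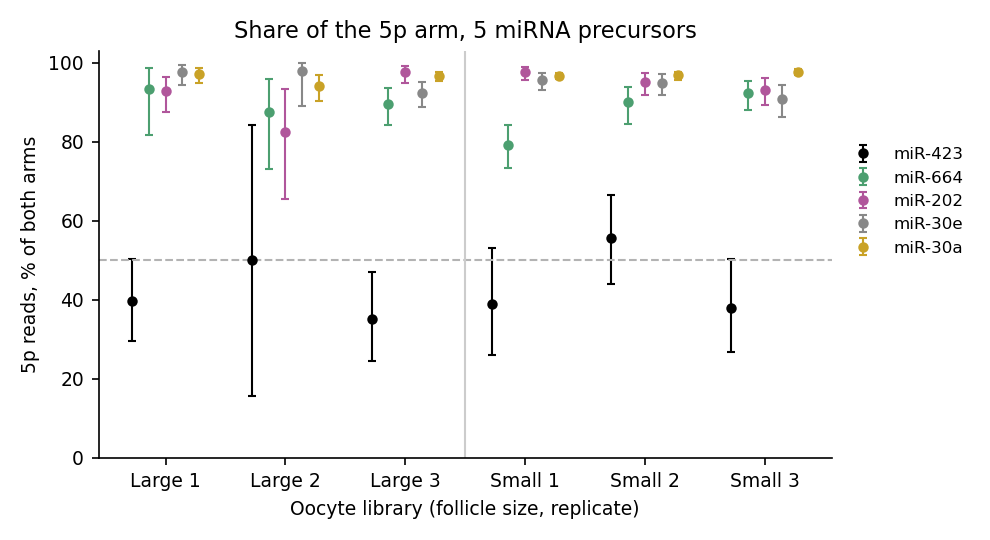
Reads of the 5p arm as a percentage of the reads of both arms, in each library, for the 5 precursors that averaged 10 or more reads per arm; bars are 95% exact Clopper-Pearson intervals and the dashed line marks 50%. miR-423 lies between 35.1% and 55.6%, and the other 4 precursors lie at 79.2% or above.

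The comparison of the study set LO against SO. The contrast did not choose the arms, but it was known when they were chosen. For miR-423-5p the LO mean was 29.8 ± 28.7 RPM and the SO mean 15.6 ± 6.85 RPM (SD, 3 libraries per group). On the log2(RPM + 1) scale its log2 fold change was 0.53 (SE 0.64, 95% interval -0.72 to 1.78, limma FDR 0.780 over 104 miRNAs). For miR-423-3p the LO mean was 46.0 ± 44.7 RPM and the SO mean 18.7 ± 1.44 RPM, and its log2 fold change was 0.70 (SE 0.61, 95% interval -0.50 to 1.90, limma FDR 0.780). Neither difference exceeded the spread between libraries, and the group ranges of both arms overlapped. limma called 0 of the 104 tested miRNAs (0%) at a false discovery rate (FDR) of 0.05, and 4 (3.85%) had an unadjusted limma p under 0.05, neither arm of miR-423 among them. Group ranges were apart for 4 of the 104 (3.85%). Both arms had higher means in LO on this scale, as did 72 of the 104 (69.2%), and the median log2 fold change of all 104 was 0.29. The SE of this fit follows the trend with abundance and not the replicates of the miRNA itself. In these bulk libraries fewer oocytes with a miRNA and less of it per oocyte cannot be told apart.

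The limma direction of both arms rested on LO replicate 1, and by edgeR that of the 5p arm. Without that library the log2 fold change was -0.21 for the 5p arm and -0.10 for the 3p arm by limma, and the median of all tested miRNAs was -0.06. Without LO replicate 2, the library with 4 reads of each arm, the values were 1.15 for the 5p arm (FDR 0.106) and 1.56 for the 3p arm (limma FDR 0.0233). In that fit 18 of the 104 (17.3%) passed and the median of all was 0.62. The quasi-likelihood test of edgeR, scaled by TMM, which sets each library against the bulk of its own miRNAs, gave log2 fold changes of 0.42 for the 5p arm (FDR 0.608) and 0.78 for the 3p arm (FDR 0.349) with all 6 libraries, and called 2 of the 104 (1.92%), neither of them an arm of miR-423. Without LO replicate 2 it gave 0.55 and 0.999 for the 5p and 3p arms (FDR 0.458 and 0.103), and without LO replicate 1 it gave -0.13 and 0.30 (FDR 0.893 for each). DESeq2 called 0 of 242 (0%) with 9 at an unadjusted p under 0.05, and had both arms at an adjusted p of 0.981.

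**Figure D3:**
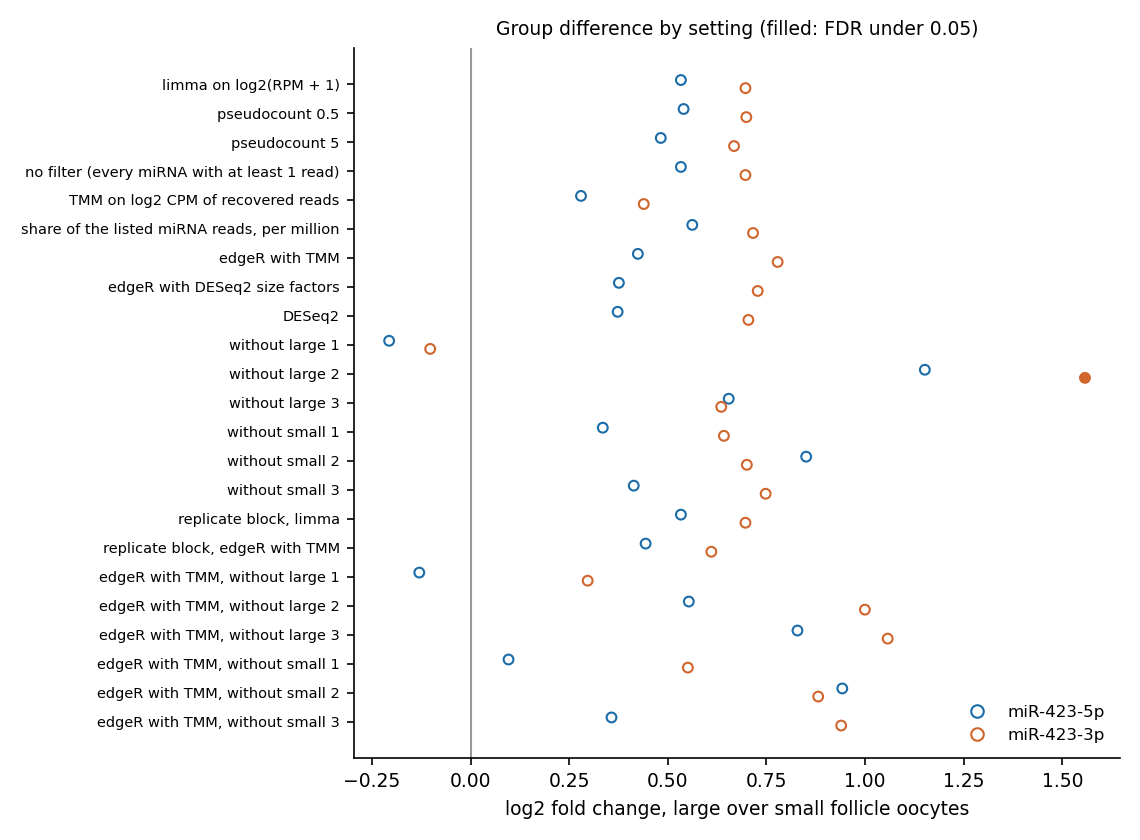
Log2 fold change of miR-423-5p and miR-423-3p, large-follicle over small-follicle oocytes, under limma on log2(RPM + 1) and each alternative; filled points have an FDR under 0.05. Values run from -0.21 for the 5p arm without large replicate 1 to 1.56 for the 3p arm without large replicate 2, the 1 filled point.

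Marker miRNAs of other cells were summed in the same libraries. The 8 miRNAs fixed for granulosa and cumulus cells, led by miR-21, miR-31 and miR-202-5p, were all listed with reads, and none was at 0 over the 6 libraries. Their summed share of listed reads was 3.84%, 1.95% and 2.57% for LO replicates 1 to 3, and 2.57%, 2.22% and 1.71% for the SO replicates. It was highest in LO replicate 1, where both arms of miR-423 were highest, and its part in the level of miR-423 was not tested. Theca, stroma and smooth muscle markers, 5 of 6 with reads and miR-214 at 0, took 0.242% to 0.438% in LO and 0.185% to 0.328% in SO, with the highest share in LO replicate 2. Muscle markers, 3 of 4 with reads and miR-133b at 0, took 0.0329% to 0.0774% in LO and 0.0157% to 0.0222% in SO. Theirs was the one list whose group ranges did not overlap. The muscle share was highest in LO replicate 2 (0.0774%), the shallowest library, and was 0.0573% in LO replicate 1. Both arms of miR-423 were lowest in RPM in LO replicate 2 and highest in LO replicate 1. The muscle shares rest on few reads in both groups, being at most 0.0774% of libraries that held 7755 to 55230 listed miRNA reads. The part of the muscle markers in the level of miR-423 was not tested. Leukocyte markers, 3 of 4 with reads, took 0.194% of SO replicate 1 and from 0.00667% to 0.0387% of the other libraries. Erythroid, endothelial and liver markers each took at most 0.0903% of any library, so these shares also rest on few reads. No list of oocyte-defining miRNAs was set, so the oocyte label itself was not checked.

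Whether the arm ratio differed with follicle size was asked over the 5 precursors with enough reads. For miR-423 the ratios compared are those whose near-equal values chose the pair, which may limit any group difference. A lack of a call is therefore no evidence that its ratio was equal in the groups. The mean log2 ratio of 5p to 3p reads of miR-423 was -0.49 ± 0.45 for LO and -0.34 ± 0.57 for SO (SD over 3 libraries). The difference of -0.15 (LO minus SO, SE 0.64, 95% interval -1.48 to 1.17) did not pass limma (FDR 0.812 over 5 precursors), and the group ranges overlapped. This SE was the same for all 5 precursors, so it is pooled over them and is not the spread of miR-423 alone. limma called 0 of the 5 precursors (0%) at FDR 0.05, and 0 had an unadjusted p under 0.05. In pooled reads the 5p share was 38.2% in LO (66 of 173 reads, 95% exact Clopper-Pearson interval 30.9 to 45.8) and 45.1% in SO (93 of 206 reads, 38.2 to 52.2). The limma interval of the difference, with its pooled SE, includes changes of more than 2-fold either way. The sign turned without LO replicate 3 (0.04) and without SO replicate 2 (0.17), the library with more 5p than 3p reads.

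The arms were next set against the other tested miRNAs library by library, each on log2(RPM + 1) minus its own mean over the 6 libraries. In LO replicate 1 the 5p arm stood 1.75 and the 3p arm 1.95 above its mean, while the median of the 104 tested miRNAs was 0.75. In that library 8 of the 104 stood higher than the 5p arm and 2 higher than the 3p arm. In LO replicate 2 the arms stood at -0.97 and -1.37, with the median of all at -0.63. LO replicate 3, where the median was 0.35, had the 5p arm at 0.02, with 89 of the 104 above it, and the 3p arm at 0.47, with 31 above it. In SO replicate 1 the median of all was 0.19 while the arms stood at -0.66 and -0.46, with 101 and 92 of the 104 above them. SO replicate 2, with a median of -0.11, separated the arms: the 5p arm stood at 0.37, with 3 of the 104 above it, and the 3p arm at -0.34, with 87 above it. In SO replicate 3 they stood at -0.51 and -0.25, with the median of all at -0.38. Both arms thus stood on the same side of the median of all in LO replicates 1 and 2 and SO replicate 1. They stood on different sides of it in the other libraries. Those splits rest on few reads: 26 and 48 of the 5p and 3p arms in LO replicate 3, 45 and 36 in SO replicate 2, and 27 and 44 in SO replicate 3. The exact intervals of the 5p share overlapped in all 6 libraries, and a split of the arms beyond counting error was not tested.

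The miRNAs with the most similar profile were found by the root mean square difference of these centred values over the 6 libraries, a description in which all miRNAs share the depth and scaling of each library. Nearest to miR-423-3p were miR-425-5p (0.11), miR-181a (0.20) and miR-140-3p (0.21), beside a median of 0.75 over the other tested miRNAs. miR-425-5p, which is made with miR-191 from one transcript, had 177, 17.3 and 65.3 RPM across LO replicates 1 to 3, while the SO libraries had 35.0, 39.6 and 48.0 RPM. It followed the 3p arm through the high LO replicate 1 and the low LO replicate 2. Nearest to miR-423-5p were miR-125a (0.18), let-7d-5p (0.24) and let-7c (0.36), beside a median of 0.71. miR-125a had 457, 86.7 and 200.1 RPM across the LO libraries, with SO at 101, 230.3 and 136 RPM, and like the 5p arm it was highest among the SO libraries in replicate 2. The other arm of miR-423 was 9th in each order (0.41). Counting error was not separated from these distances, and the miRNAs differed in depth. In LO replicate 2 each arm of miR-423 had 4 reads, and miR-181a had 4.33 RPM, where 1 read was worth 2.17 RPM. miR-125a had 86.7 RPM in that library.

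**Figure D4:**
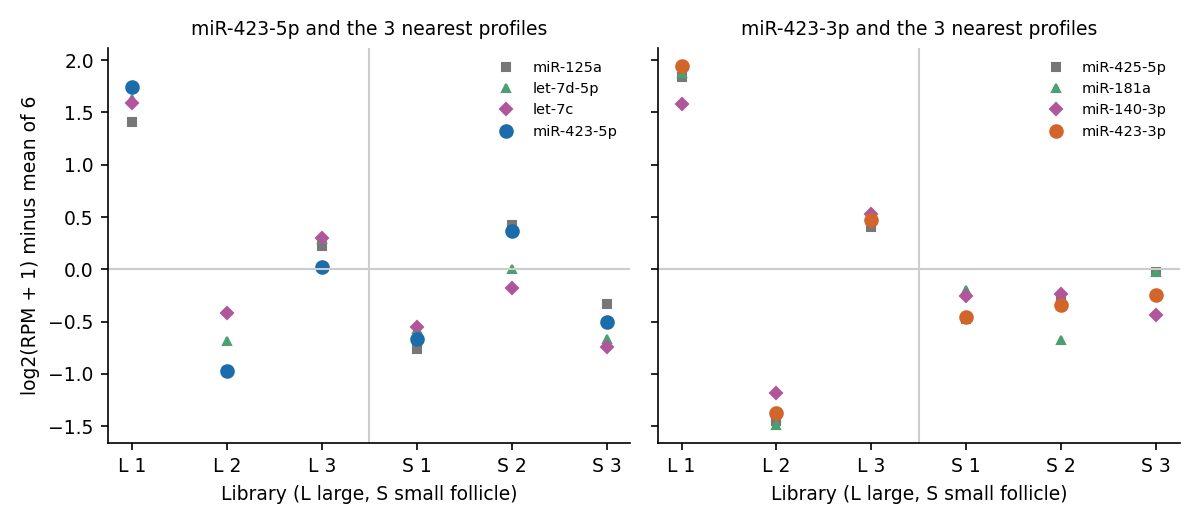
Values of log2(RPM + 1) minus the mean over the 6 libraries for miR-423-5p (left) and miR-423-3p (right), each with the 3 tested miRNAs whose values were nearest by root mean square difference. Both arms peak in large replicate 1 (1.75 and 1.95), and in small replicate 2 the 5p arm lies above its mean (0.37) and the 3p arm below (-0.34).

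Because the arms of miR-423 serve as reference miRNAs in PCR assays, their spread was set beside that of 6 miRNAs used in the same way. Of these, miR-16, miR-103, miR-191, miR-26a and miR-24-3p were tested, and miR-93 was not analysed here. The SD of log2(RPM + 1) over the 6 libraries was 0.98 for miR-423-5p and 1.12 for miR-423-3p, the 16th and the 9th largest of the 104 tested miRNAs, whose median was 0.62. LO replicate 1 carried much of this: without it the SDs were 0.54 and 0.66, the 49th and the 24th largest, beside a median of 0.52. With all 6 libraries the SD was 0.34 for miR-16, 0.37 for miR-26a, 0.59 for miR-191, 0.69 for miR-103 and 0.74 for miR-24-3p, and without LO replicate 1 it ran from 0.30 for miR-26a to 0.62 for miR-24-3p. Each of these 5 was read more deeply than either arm of miR-423, from 60.4 RPM for miR-24-3p to 3186 RPM for miR-16 on average. None of the 5 passed FDR 0.05 by limma between LO and SO (0%, as for all 104) and none had an unadjusted limma p under 0.05. All 5 had higher means in LO, with a median log2 fold change of 0.33 beside 0.29 for all tested miRNAs, from 0.08 for miR-16 to 0.64 for miR-24-3p.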

How the data were processed

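Each deposited table gives 326 mature pig miRNAs with sequence and 1 value. The file headers call it TPM, but every deposited value above 0 was a whole multiple of 1 step per library (100% within 0.01 read), so the values were read as RPM of a total set by the authors, whose content is not known, and whole reads were recovered. Tools listed without a role, per the submitters' processing notes, were Bowtie2 2.2.2, edgeR, cutadapt and bcl2fastq, with pig build Sscrofa10.2. No label says if molecular identifiers were counted, so reads are not taken as molecules.

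Library totals behind the RPM ran from 461505 to 2187987. Replicates of a group differed beyond sampling noise (chi-square over degrees of freedom 2.71 to 16.8). limma 3.58.1 (R 4.3.3) with an intensity trend was fitted on log2(RPM + 1) for the 104 miRNAs passing edgeR's filterByExpr, with Benjamini-Hochberg adjustment, and without trend on arm ratios. edgeR 4.0.16 and DESeq2 1.42.0 were run on recovered reads. The fits were also run on simulated data, drawn without a shift of the whole profile such as that of LO replicate 1. That run checked the code and does not show how the fits behave on libraries like these. Alternatives covered scaling, tool, pseudocount, filter, read minimum, each library left out and the replicate number as a block; edgeR and the SD over libraries without each library were added after seeing the data.

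The members, lists and rules were chosen with earlier results of these data known. Named were both arms, precursors with enough reads in each arm, the miRNAs nearest by level (2 each side) and by profile (3 per arm), and reference miRNAs. miR-361, miR-148a, miR-27b, miR-676, miR-365, miR-296, miR-126, miR-142 and miR-374a as precursors were named after their values were seen.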

Additional observations from a re-analysis of the deposited data

How the results depend on the processing

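With all 6 libraries, 10 alternatives kept both arms higher in LO with no call, at log2 fold changes of 0.28 to 0.56 for miR-423-5p and 0.44 to 0.78 for miR-423-3p (adjusted p 0.555 to 0.981 and 0.323 to 0.981). Leaving out 1 library gave -0.21 to 1.15 for miR-423-5p and -0.10 to 1.56 for miR-423-3p by limma, and -0.13 to 0.94 and 0.30 to 1.06 by edgeR. The count of miRNAs past FDR 0.05 was 2 by edgeR with TMM and 2 with DESeq2 size factors. With a library left out it ran from 0 to 18 by limma and from 0 to 4 by edgeR. The cause was not tested. The arm ratio difference ran from -0.40 to 0.17 with a library left out and was -0.41 when weighted by counting variance (FDR 0.580), with 0 precursors called in each of 10 alternatives. The 5p share of miR-423 ran from 40.3% to 44.4%. Among precursors past the read minimum (5 reads per arm at the loosest) none was nearer to equal arms in any of 9 settings. Near-equal arms chose miR-423 in these data, so that order is a description and no support. With miR-423 included, 8 precursors passed the loosest minimum and 5 the main one. The SD of log2(RPM + 1) over libraries, left out in turn after seeing the data, ran from 0.54 to 1.10 for miR-423-5p and from 0.66 to 1.25 for miR-423-3p. The arm ratio was not fitted at a minimum of 20 reads, where fewer than 3 precursors are left.

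LO and SO share replicate numbers, but same-numbered libraries did not deviate together (correlations -0.34, -0.22 and 0.08), and no LO library correlated best with its own number. With the replicate block the log2 fold changes were 0.53 and 0.70 for the 5p and 3p arms by limma and 0.44 and 0.61 by edgeR, the edgeR count went from 2 to 0, the limma count was 0, and the arm ratio difference was -0.15 (FDR 0.683). Depth limits LO replicate 2, with 8 reads over both arms.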
